A study of Mus musculus with 9 samples.

Results

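The aminoacyl-tRNA synthetases and their scaffold proteins were described in gene-level RNA sequencing values of mouse hepatic stellate cells, the liver's vitamin A-storing and collagen-producing cells. Members were the genes whose symbol has the form of a synthetase name ([letter]ars, with or without a 1 or 2, Eprs, Farsa, Farsb) or of an Aimp scaffold name, and 38 of the 14020 genes in the deposited table met this. Of these, 22 act in the cytosol, made up of 20 synthetases and the scaffolds Aimp1 and Aimp2, and 16 with symbols ending in 2 encode mitochondrial enzymes; Aimp2 ends in 2 but is a scaffold of the cytosol and was counted there. The table uses older symbols (Gars, Nars, Sars) for most members. The 9 libraries came from cells with a combined knock-out of Nbr1 and Sqstm1 (DKO), cells with a knock-out of Sqstm1 alone (Sqstm1 KO) and wild type cells (WT), with 3 libraries in each group. Nbr1 and Sqstm1 (p62) are selective autophagy receptors. All cells were kept for 4 days in serum-containing DMEM under basal conditions, and the labels give no strain, age, sex, allele, promoter or driver for either knock-out. They also do not say whether the 3 libraries of a group came from separate animals or from separate cultures of the same cells, so p-values measure only the spread between these libraries, which may be technical.

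Each synthetase couples 1 amino acid to its transfer RNAs, the step that fixes the genetic code before the ribosome is reached. The enzymes fall into class I and class II by the fold of the catalytic domain. In animal cells several cytosolic synthetases are held together with Aimp1, Aimp2 and Eef1e1 in a multi-synthetase complex, while others, such as the glycine, alanine, serine, threonine and tyrosine enzymes, work outside it. Mitochondria take most of their synthetases from separate nuclear genes, but Gars and Kars each supply both compartments, and mitochondrial glutaminyl-tRNA is made indirectly through Ears2 and an amidotransferase. When amino acids run short or another eIF2alpha kinase is active, the transcription factor ATF4 induces many cytosolic synthetases together with genes for amino acid synthesis and transport. The tryptophan enzyme, Wars1, is also known as an interferon-gamma-induced gene.

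Values are normalized counts, that is, reads per gene divided by 1 size factor per library. Each read was worth 0.606 to 1.36 normalized counts, and the libraries held 819677 to 1467793 counted reads. The members took 0.152% to 0.288% of them, and single members had 20 to 3152 reads over the 9 libraries. Sqstm1 itself stood at 25.8, 51.4 and 59.9 in DKO libraries, at 40.8, 30.8 and 86.8 in Sqstm1 KO libraries and at 223, 255 and 243 in WT libraries, so every library labelled as a knock-out was below every WT library. Nbr1 stood at 79.9 to 111 in DKO libraries, 72.2 to 88.9 in Sqstm1 KO libraries and 92.7 to 106 in WT libraries; a value over the whole gene cannot show whether part of it is deleted, which leaves the Nbr1 label unchecked. Ddx3y, Eif2s3y, Kdm5d and Uty, which lie on the Y chromosome, had reads in every DKO and WT library and 0 in all Sqstm1 KO libraries, so the sex of the cells and the Sqstm1 KO genotype cannot be told apart. Sqstm1 KO replicate 3 stood apart from its group: its correlation across genes with replicates 1 and 2 was 0.853 and 0.847, against 0.943 between those replicates, and 18.5% of its reads fell on its 10 highest genes.

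Of 17 stellate cell markers 11 had a row, and they summed to 4434 to 6645 in DKO, 5349 to 6170 in Sqstm1 KO and 1735 to 1882 in WT libraries. Des, Lrat, Reln, Ngfr, Colec11 and Lum, also on that list, had no row. No hepatocyte marker on a list of 7 had a row. Of 8 macrophage markers 4 had a row (sum 14.3 to 29.3 in DKO, 8.68 to 12.2 in Sqstm1 KO and 20.3 to 35.4 in WT libraries), of 7 endothelial markers 1 (2.87 to 12.6, 2.17 to 8.17 and 9.7 to 16.3 in the same order) and of 5 cholangiocyte markers 2 (25.8 to 49.1, 29.2 to 34.7 and 16.3 to 26.4). The part that these marker levels play in the results on synthetases was not tested, and fewer cells of a type cannot be told apart from less RNA per cell in such bulk samples. The strandedness of the libraries is not given in the sources used here. For 16 members, 8 of them cytosolic, an exon shares bases with an opposite-strand gene. Reads of such a pair could not be separated if strand was not used. Members with such a partner are named where they are called. Of the 100 highest genes matched by name to the annotation, 72% had such a partner, against 36.1% of the other matched genes. How far opposite-strand reads enter the values was not tested.

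In Sqstm1 KO cells the cytosolic synthetase transcripts Gars, Cars and Nars were higher than in WT cells, between 1.89-fold and 3.27-fold on the scale of log2(value + 1). They were the 3 of 22 cytosolic members that passed the test, and 0 were lower. Over all 10118 genes tested, 2.43% were called higher and 3.18% lower. The test was limma on log2(value + 1) across all 9 libraries, with p-values adjusted by Benjamini-Hochberg over the tested genes and a threshold of 0.05; genes entered the test when 3 or more libraries reached a value of 10. All 22 cytosolic members and 8 of the 16 mitochondrial members met this, so the counts given for mitochondrial members cover only those 8.

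Gars encodes the glycyl-tRNA synthetase of the cytosol and the mitochondria. Its normalized count was 227, 215 and 271 in Sqstm1 KO libraries and 87.2, 55.7 and 75.8 in WT libraries. The 2 groups did not overlap, and the lowest Sqstm1 KO value was well above the highest WT value. The log2 fold change was 1.71 (SE 0.26, limma adjusted p = 0.00131), and it was called under every alternative processing tried and without any single library. Nars, the asparaginyl-tRNA synthetase, stood at 439, 424 and 565 in Sqstm1 KO and at 232, 253 and 264 in WT libraries. Its groups were also apart, with a log2 fold change of 0.92 (SE 0.23, limma adjusted p = 0.032). Cars, the cysteinyl-tRNA synthetase, stood at 61.3, 86.8 and 128 in Sqstm1 KO and at 28.6, 33.1 and 41.8 in WT libraries. The Sqstm1 KO values of Cars were spread widely but lay above all WT values, and the log2 fold change was 1.34 (SE 0.33, limma adjusted p = 0.0309). Cars overlaps the opposite-strand Gm15580 over 211 bases, 3.21% of its exon length; Gars and Nars have no such overlap.

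**Figure D1:**
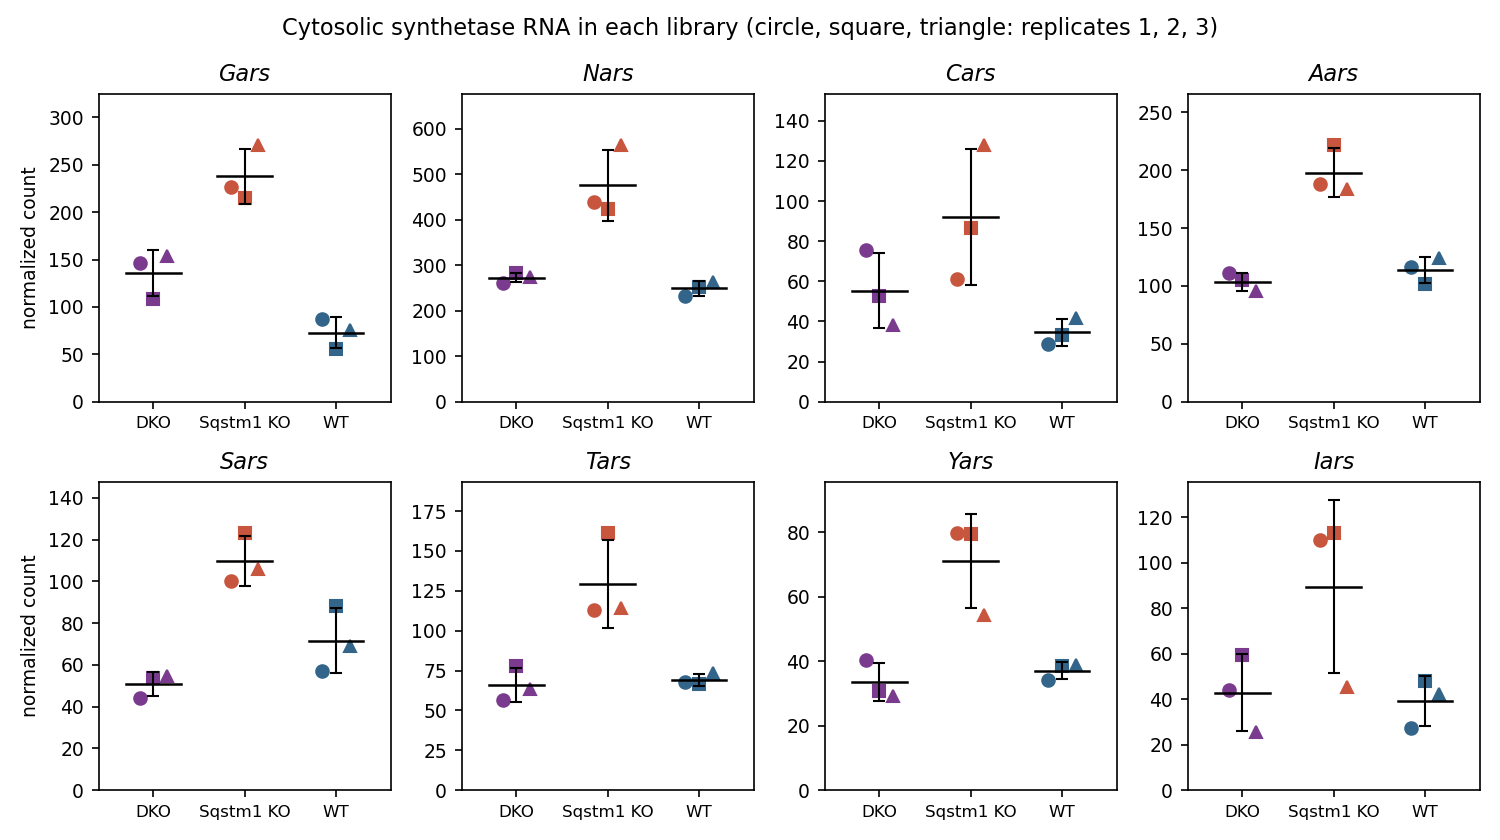
Normalized count of 8 cytosolic synthetases in each library (points), with the group mean (line) and SD (bar, n = 3), for DKO, Sqstm1 KO and WT cells; every axis starts at 0. Gars, Nars, Cars, Aars, Sars, Tars and Yars, the members called in a comparison, had all 3 Sqstm1 KO values above all 3 WT values, while for Iars, which was not called, Sqstm1 KO replicate 3 lay at 45.6, below the highest WT value of 48.2.

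A further group of cytosolic members had Sqstm1 KO values that lay wholly above the WT values without passing the test. Aars (alanine) stood at 188, 222 and 184 in Sqstm1 KO and 116, 102 and 124 in WT libraries. Tars (threonine) stood at 113, 161 and 114 in Sqstm1 KO and 68.1, 66.3 and 73.4 in WT libraries. Yars (tyrosine) stood at 79.6, 79.5 and 54.2 in Sqstm1 KO and 34, 38.4 and 38.8 in WT libraries. Each of these 3 had a gap between the groups, but their limma adjusted p of 0.0582, 0.06 and 0.0776 did not pass. Sars (serine) stood at 100, 123 and 106 in Sqstm1 KO and 57.2, 88.1 and 69.1 in WT libraries. Lars (leucine) stood at 152, 160 and 194 in Sqstm1 KO and 80.3, 95.7 and 124 in WT libraries. Eprs, whose protein carries both the glutamyl and the prolyl enzyme, stood at 212, 219 and 299 in Sqstm1 KO and 146, 167 and 192 in WT libraries. With the called genes these made 9 of 22 cytosolic members whose values did not overlap in the higher direction, against 12.4% of all genes tested, and 1 in the lower direction, against 13.6%. That 1 was Farsa, the catalytic alpha subunit of the phenylalanine enzyme, at 15.3, 20.3 and 10.8 in Sqstm1 KO and 32.7, 27.1 and 26.1 in WT libraries, and it was not called.

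Iars (isoleucine) and Vars (valine) had 2 high Sqstm1 KO libraries and 1 that lay within or below the WT values. Iars stood at 110, 113 and 45.6 in Sqstm1 KO and 27.2, 48.2 and 42.4 in WT libraries. Vars stood at 73.5, 79.5 and 34.7 in Sqstm1 KO and 47.7, 41.4 and 44.9 in WT libraries. In both genes the low value belonged to Sqstm1 KO replicate 3, the library that stood apart. Mars1 (methionine) went the other way in that library, with 147, 123 and 308 in Sqstm1 KO and 191, 157 and 146 in WT libraries. Mars1 overlaps Ddit3 on the opposite strand over 68 bases, and Ddit3 stood at 383, 229 and 781 in the same Sqstm1 KO libraries and at 372, 266 and 238 in WT libraries; both were highest in Sqstm1 KO replicate 3, and the part of the overlap was not tested. Wars1 had few reads and stood at 16.3, 24.3 and 17.4 in Sqstm1 KO and 17.7, 13.6 and 19.4 in WT libraries, with the groups overlapping.

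The members reported as ATF4-responsive (Aars, Cars, Eprs, Gars, Iars, Lars, Mars1, Nars, Sars, Tars, Vars, Wars1 and Yars) held all 3 called genes, and their median log2 fold change in Sqstm1 KO against WT was 0.79, with 13 of 13 above 0. The other 7 cytosolic synthetases (Dars, Farsa, Farsb, Hars, Kars, Qars and Rars) held 0 called genes by limma, edgeR or DESeq2, with 1 at an unadjusted limma p under 0.05, and their median was 0.18, with 4 of 7 above 0. Over all genes tested the median was -0.014, with 49% above 0 and 19.4% at an unadjusted limma p under 0.05. Summed over the list, the ATF4-responsive members stood at 1919, 2030 and 2322 in Sqstm1 KO libraries and at 1132, 1159 and 1255 in WT libraries, which did not overlap. The other 7 summed to 342, 336 and 386 in Sqstm1 KO and 308, 335 and 362 in WT libraries, which overlapped. The difference between the lists was not itself tested, and ATF4-responsive is what other studies report of these genes, not a measurement in these cells.

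**Figure D2:**
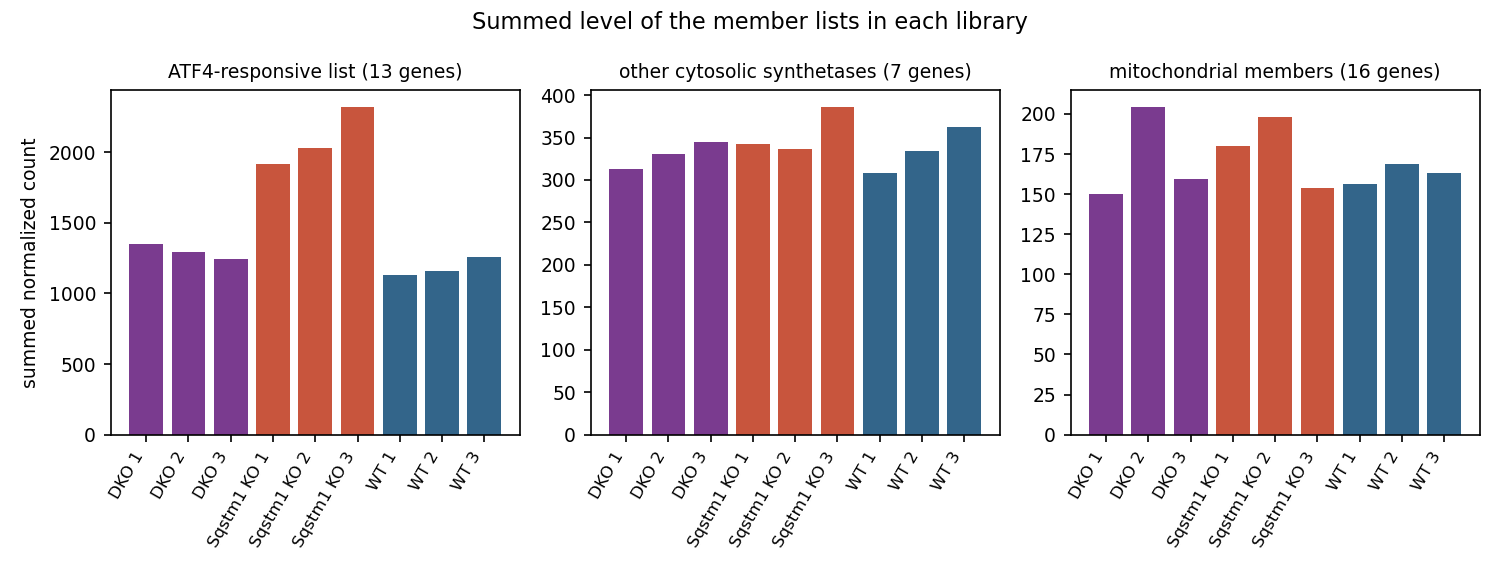
Summed normalized count of the 13 ATF4-responsive members, the other 7 cytosolic synthetases and all 16 mitochondrial members in each library; bars are single libraries of DKO, Sqstm1 KO and WT cells and start at 0. The first sum lay between 1242 and 1349 in DKO, 1919 and 2322 in Sqstm1 KO and 1132 and 1255 in WT libraries, while the other two sums overlapped between the groups.

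Members were also counted by complex and by class. None of the 10 members of the multi-synthetase complex (Dars, Eprs, Iars, Kars, Lars, Mars1, Qars, Rars, Aimp1 and Aimp2) was called in Sqstm1 KO against WT by limma, edgeR or DESeq2, with 3 at an unadjusted limma p under 0.05, and their median log2 fold change was 0.22. Such an unadjusted p was found in 19.4% of all genes tested. The 12 members outside the complex held the 3 called genes and had a median of 0.71. The scaffolds overlapped between the groups. Aimp1 stood at 51, 46.3 and 65.1 in Sqstm1 KO and 49, 35.4 and 54 in WT libraries. Aimp2 stood at 36.8, 39 and 47.7 in Sqstm1 KO and 57.2, 47.5 and 35.2 in WT libraries. Aimp2 shares bases with the opposite-strand Eif2ak1 over 29.4% of its exon length, so its values are uncertain if strand was not used. Kars (lysine), which like Gars serves both compartments, stood at 81.7, 106 and 95.4 in Sqstm1 KO and 64, 84.4 and 100 in WT libraries, also overlapping. Class I held 1 called gene of 10 (Cars) with a median of 0.46, and class II held 2 of 10 (Gars and Nars) with a median of 0.50. Eprs, whose protein carries both the glutamyl and the prolyl enzyme, was counted in class I only.

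Promoter windows from RefSeq are given for the 3 called members with the smallest p-values, since every called member is on the ATF4-responsive list. Each runs from 250 bases before the annotated start to 50 bases after it on GRCm38.p6, 5′ to 3′ on the gene's strand. Capitals mark matches to TGATGNAA on either strand, the 8-base core of the composite element that ATF4 and C/EBP factors bind. The windows are Gars at chr6:55037751-55038050 (+), Aars at chr8:111033592-111033891 (+) and Sars at chr3:108445210-108445509 (-).

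Gars: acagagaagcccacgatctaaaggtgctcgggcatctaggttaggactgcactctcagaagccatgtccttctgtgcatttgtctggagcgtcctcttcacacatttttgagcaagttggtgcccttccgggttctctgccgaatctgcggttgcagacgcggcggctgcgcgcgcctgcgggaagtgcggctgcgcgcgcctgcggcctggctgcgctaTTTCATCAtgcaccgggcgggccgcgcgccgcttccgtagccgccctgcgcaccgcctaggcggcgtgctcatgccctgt
Aars: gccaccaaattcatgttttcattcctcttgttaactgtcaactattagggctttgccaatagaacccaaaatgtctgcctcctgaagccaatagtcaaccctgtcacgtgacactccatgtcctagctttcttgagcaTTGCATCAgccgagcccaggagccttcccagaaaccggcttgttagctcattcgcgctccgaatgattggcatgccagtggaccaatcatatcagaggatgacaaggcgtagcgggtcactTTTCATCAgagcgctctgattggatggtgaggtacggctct
Sars: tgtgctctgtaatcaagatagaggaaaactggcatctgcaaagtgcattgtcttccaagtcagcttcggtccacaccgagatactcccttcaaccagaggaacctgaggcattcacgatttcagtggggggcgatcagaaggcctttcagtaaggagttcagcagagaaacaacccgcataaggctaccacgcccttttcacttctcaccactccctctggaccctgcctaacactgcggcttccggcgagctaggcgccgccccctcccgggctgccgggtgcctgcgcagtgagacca

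The Gars window holds 1 match, 30 bases before the start. Aars holds 2, beginning 112 bases before the start and at base 10 after it. Sars holds 0. Tars, Yars and Iars also hold a match, and 40-base stretches around it are given because it lies close to the start in all 3: Tars on chromosome 15, beginning 15 bases before it, Yars on chromosome 4, at base 4, and Iars on chromosome 13, at base 8.

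Tars: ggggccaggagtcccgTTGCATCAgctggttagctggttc
Yars: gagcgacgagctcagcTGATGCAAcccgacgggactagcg
Iars: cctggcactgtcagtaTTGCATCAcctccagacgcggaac

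A RefSeq window was matched for 28 members. Among the 8 ATF4-responsive members with a window, 5 (Aars, Gars, Iars, Tars and Yars) hold a match, against 0 of the 7 remaining cytosolic members with a window (Aimp1, Aimp2, Dars, Farsa, Farsb, Kars and Qars) and 0 of 13 mitochondrial members; 3.97% of 32851 windows of the same length in the reference table hold one. Eprs, Mars1 and Sars had a window without a match. No window was matched for Cars, Lars, Nars, Vars and Wars1, so the called genes Cars and Nars were not searched. Of the interferon motifs, the core GAAANNGAA, found in 8.56% of all windows, was in Aimp2 and Qars, and TTCNNNGAA, found in 8.3%, was in Kars, Nars2 and Aars, whose window also holds the ATF4 matches. These are matches of letters and were not tested for binding.

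In DKO cells the cytosolic transcripts Sars, Aars, Yars and Tars were lower than in Sqstm1 KO cells, by 1.89-fold to 2.14-fold on the scale of log2(value + 1), and 0 cytosolic members were higher. These were 4 of 22 called lower, where 1.51% of all genes tested were called lower and 4.42% higher. This comparison and the one with WT share the 3 Sqstm1 KO libraries, so a high value there enters both, with opposite signs, and the calls of one do not add to those of the other. By the labels the groups differ in Nbr1; they also differ in Y-linked reads.

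Sars stood at 44, 53.7 and 54.8 in DKO libraries and at 100, 123 and 106 in Sqstm1 KO libraries. All DKO values lay well below the Sqstm1 KO values, and the log2 fold change was -1.10 (SE 0.26, limma adjusted p = 0.0204). Aars stood at 111, 105 and 95.5 in DKO and at 188, 222 and 184 in Sqstm1 KO libraries, with no overlap and a log2 fold change of -0.92 (SE 0.23, limma adjusted p = 0.0274). Yars stood at 40.2, 30.8 and 29.3 in DKO and at 79.6, 79.5 and 54.2 in Sqstm1 KO libraries. Its groups were apart, with a log2 fold change of -1.06 (SE 0.28, limma adjusted p = 0.0376). Tars stood at 56.4, 77.6 and 63.7 in DKO and at 113, 161 and 114 in Sqstm1 KO libraries, again without overlap, with a log2 fold change of -0.95 (SE 0.25, limma adjusted p = 0.0394). Aars overlaps the opposite-strand Gm24103 over 77 bases and Yars overlaps C77080 over 30 bases, each under 1% of the exon length. Sars and Tars have no such overlap. Aars also shares exon bases with Exosc6 on its own strand, and strand cannot separate reads there.

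The genes called in Sqstm1 KO against WT had DKO means between those of the Sqstm1 KO and WT groups. Gars stood at 146, 108 and 154 in DKO libraries, against 227, 215 and 271 in Sqstm1 KO libraries, without overlap and with a limma adjusted p of 0.092. Nars stood at 262, 283 and 274 in DKO libraries, against 439, 424 and 565 in Sqstm1 KO libraries, also without overlap and with a limma adjusted p of 0.0619. Neither passed the test. Cars overlapped, at 75.5, 52.5 and 38.2 in DKO and 61.3, 86.8 and 128 in Sqstm1 KO libraries. With these, 6 of 22 cytosolic members had DKO values wholly below the Sqstm1 KO values, against 9.47% of all genes tested.

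Of the ATF4-responsive members 13 of 13 had a log2 fold change below 0 in DKO against Sqstm1 KO, with a median of -0.79, and they held all 4 called genes. The other 7 cytosolic synthetases held 0 called genes by limma, edgeR or DESeq2 and 0 at an unadjusted p under 0.05, and their median was -0.09, with 5 of 7 below 0. The median of all genes tested was -0.008, with 18.8% at an unadjusted limma p under 0.05. The complex again held 0 called genes by these tools, with 1 at an unadjusted p under 0.05 (median -0.25), and the members outside it held all 4 (median -0.75). Class I held 1 called gene (Yars) and class II held 3 (Aars, Sars and Tars). Iars and Vars were lower in DKO than in Sqstm1 KO replicates 1 and 2 but overlapped replicate 3, with Iars at 44, 59.4 and 25.5 and Vars at 51.6, 36.5 and 38.2 in DKO libraries.

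**Figure D3:**
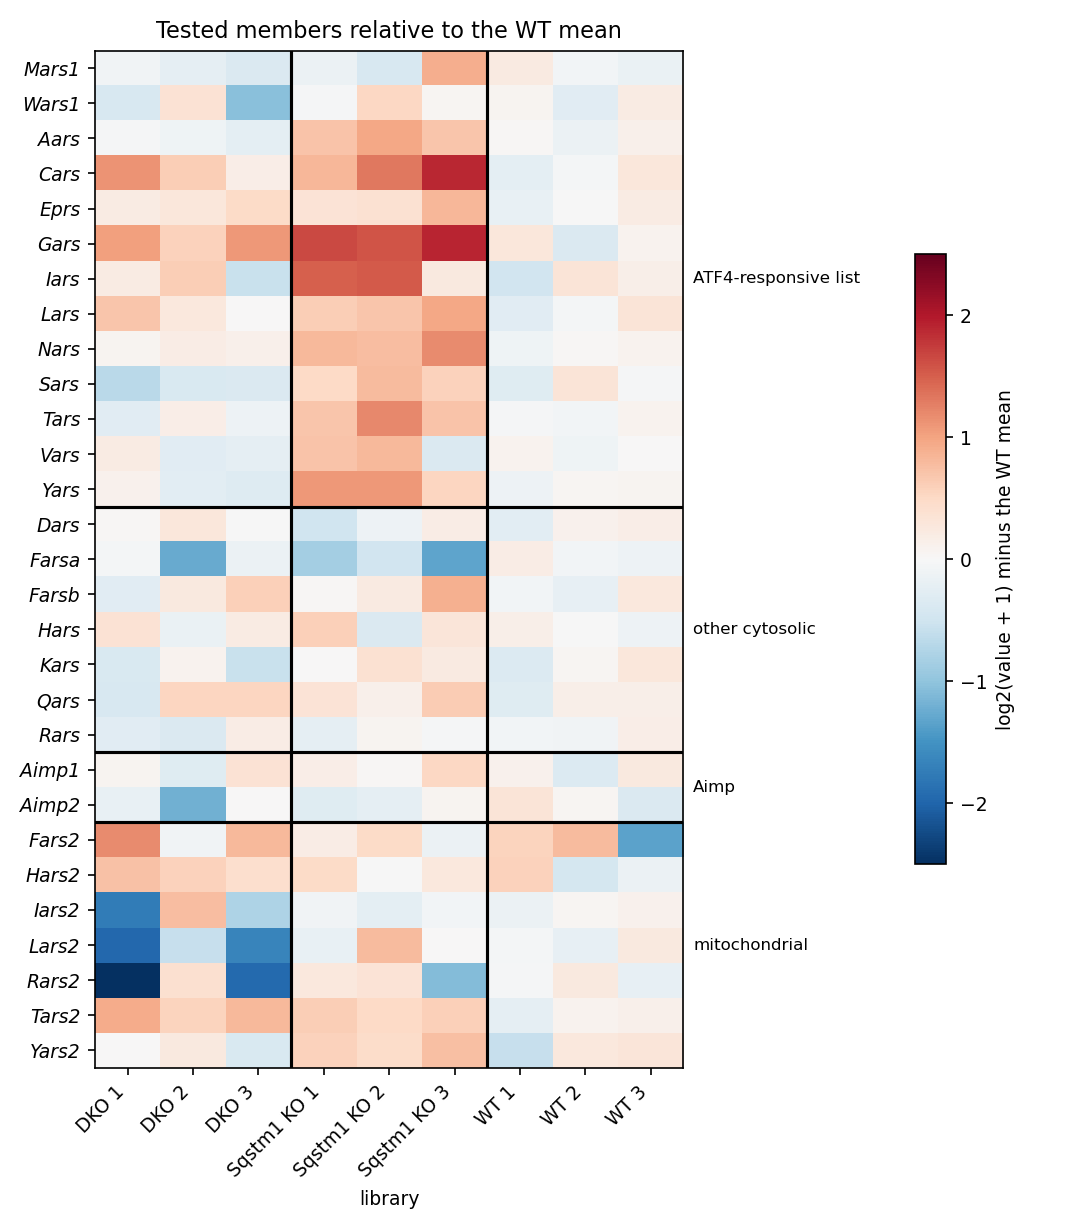
Log2(value + 1) of tested members in each library minus the mean of the WT libraries, with red above and blue below that mean; columns are single DKO, Sqstm1 KO and WT libraries and black lines part the member lists. The ATF4-responsive members are mostly red in the Sqstm1 KO columns, the other cytosolic members show no such block, and Rars2 and Lars2 are blue in DKO replicates 1 and 3.

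The calls in DKO against Sqstm1 KO differed with the libraries fitted. They numbered 0 among the cytosolic members without DKO replicate 1, DKO replicate 3 or Sqstm1 KO replicate 2, and 0 with only the 6 libraries of these groups in the fit. Sars and Tars stayed called without DKO replicate 2, 1 of the 4 without Sqstm1 KO replicate 1, and 1 or 2 without any 1 WT replicate. Without Sqstm1 KO replicate 3 all 4 stayed called and Iars joined, which made 5. The sign of Mars1 also turned without that library, to -0.28 in Sqstm1 KO against WT and 0.05 in DKO against Sqstm1 KO on the log2 scale, so that 12 and not 13 of the ATF4-responsive members shared a direction. In Sqstm1 KO against WT only Gars was called without any 1 WT replicate, and 6 members (Gars and Nars with Aars, Iars, Tars and Yars) were called without Sqstm1 KO replicate 3.

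Between DKO and WT cells 0 of the 22 cytosolic members were called by limma, where 4.11% of all genes tested were called higher and 2.31% lower. Gars was the 1 of 22 cytosolic members with an unadjusted limma p under 0.05, against 21.4% of all genes tested. On the recovered reads edgeR called 0 and DESeq2 called 1, again Gars. Gars stood at 146, 108 and 154 in DKO and at 87.2, 55.7 and 75.8 in WT libraries, without overlap, with a log2 fold change of 0.90 (SE 0.26, limma adjusted p = 0.0542), a value just outside the threshold that was singled out after it was seen. Eprs was the other cytosolic member with DKO values wholly above WT, at 193, 204 and 234 in DKO and 146, 167 and 192 in WT libraries, and Sars was wholly below, at 44, 53.7 and 54.8 in DKO and 57.2, 88.1 and 69.1 in WT libraries; neither was called. These counts of 2 and 1 of 22 compare with 15.7% and 15.5% of all genes tested. The median log2 fold change was -0.02 over the cytosolic members, -0.08 over the ATF4-responsive members and -0.020 over all genes tested. Nars stood at 262, 283 and 274 in DKO and 232, 253 and 264 in WT libraries, Aars at 111, 105 and 95.5 in DKO and 116, 102 and 124 in WT libraries, and Tars at 56.4, 77.6 and 63.7 in DKO and 68.1, 66.3 and 73.4 in WT libraries. Each of these overlapped between the groups, which does not show that they were equal.

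**Figure D4:**
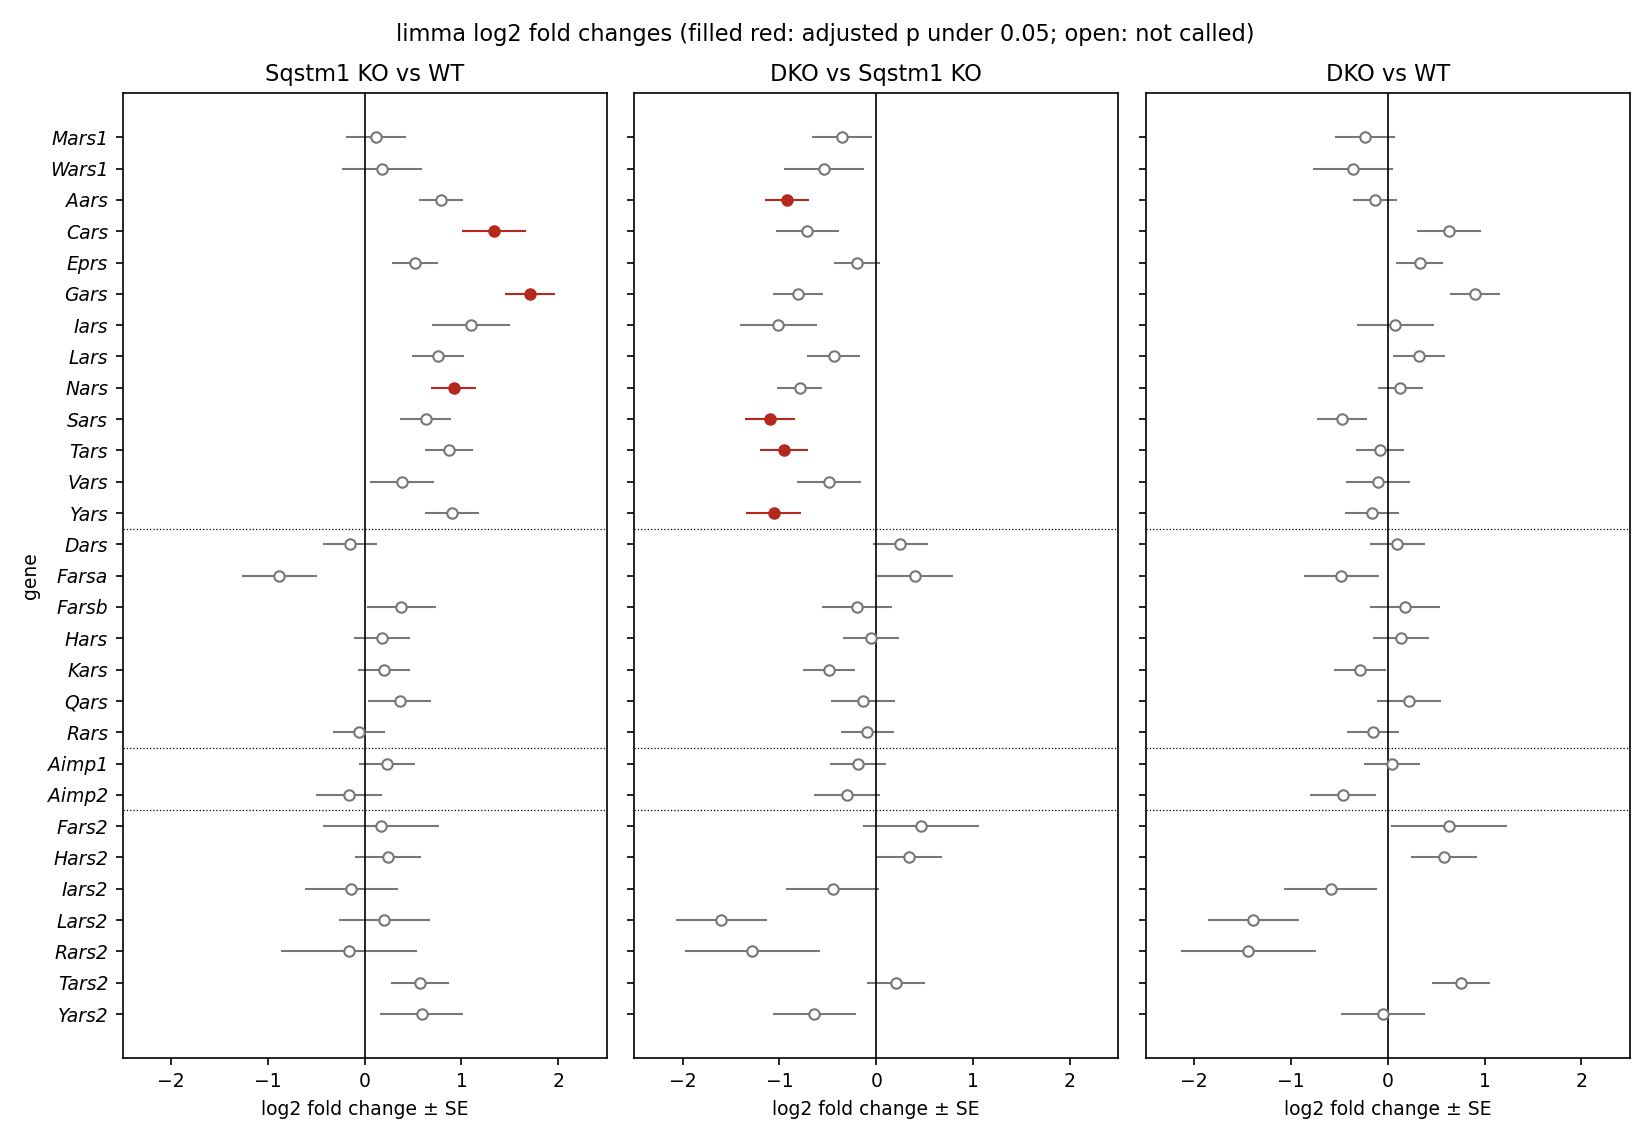
Log2 fold change with SE of tested members in Sqstm1 KO against WT, DKO against Sqstm1 KO and DKO against WT; filled red points had a limma adjusted p under 0.05 and open points did not, and dotted lines part the ATF4-responsive, other cytosolic, Aimp and mitochondrial members. The filled points are Cars, Gars and Nars at 0.92 to 1.71 in the first panel and Aars, Sars, Tars and Yars at -1.10 to -0.92 in the second, and there is none in the third.

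The remaining cytosolic synthetases had overlapping values in all 3 comparisons, Farsa apart. Dars (aspartate) stood at 52.2 to 63.9 in DKO, 36.8 to 59.7 in Sqstm1 KO and 43.6 to 58.8 in WT libraries. Rars (arginine) stood at 37.7 to 56 in DKO, 41.9 to 51.1 in Sqstm1 KO and 46 to 54.6 in WT libraries. Qars (glutamine) stood at 22.9 to 44.6 in DKO, 33.3 to 47.7 in Sqstm1 KO and 24.5 to 34 in WT libraries. Hars (histidine) stood at 62.8 to 89.9 in DKO, 54.4 to 107 in Sqstm1 KO and 64.3 to 77.6 in WT libraries. Farsb, the beta subunit of the phenylalanine enzyme, stood at 16.3 to 30.6 in DKO, 20.4 to 38 in Sqstm1 KO and 17.3 to 24.3 in WT libraries, and its partner Farsa at 11.4 to 27.7 in DKO libraries. No pair of groups was apart in any of these genes other than Farsa in Sqstm1 KO against WT.

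The 16 mitochondrial synthetases were low, with 20 to 336 reads each over the 9 libraries, and the 8 tested held 0 called genes in each of the 3 comparisons by limma. At an unadjusted limma p under 0.05 there were 0 in Sqstm1 KO against WT. In DKO against Sqstm1 KO there was 1, and in DKO against WT there were 2. Of all genes tested, 19.4%, 18.8% and 21.4% had such a p in the same order. The 8 also held 0 called genes in each comparison by edgeR and DESeq2. Their median log2 fold changes were 0.19, -0.13 and 0.01 in those comparisons, and the second was 0.13 with no filter, over all 16. Summed over all 16, they stood at 150, 204 and 159 in DKO, 180, 198 and 154 in Sqstm1 KO and 157, 169 and 163 in WT libraries, with full overlap.

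Lars2, the mitochondrial leucyl-tRNA synthetase, stood at 2.87, 9.13 and 3.82 in DKO libraries, against 12.3, 25.2 and 14.1 in Sqstm1 KO libraries and 13.6, 12.1 and 17 in WT libraries. All 3 DKO values lay below all values of the other groups. The log2 fold change was -1.60 against Sqstm1 KO (SE 0.47, limma adjusted p = 0.0641) and -1.39 against WT (SE 0.47, limma adjusted p = 0.101), so it was not called in either. Without DKO replicate 2, the highest of the 3, it was called in both. Of the 8 tested mitochondrial members, 2 had DKO values wholly below Sqstm1 KO and 1 had DKO values wholly below WT. Among all genes tested these shares were 9.47% and 15.5%. Rars2, the mitochondrial arginine enzyme, stood at 0.956, 17.1 and 2.55 in DKO, 15.3, 16.2 and 5.42 in Sqstm1 KO and 12.3, 15.1 and 10.9 in WT libraries. Iars2, the isoleucine enzyme, stood at 10.5, 65.1 and 21.7 in DKO, 35.7, 31.7 and 35.8 in Sqstm1 KO and 34, 39.2 and 40.6 in WT libraries. In all 3 genes DKO replicate 2 was the high one of its group, so the DKO libraries disagreed among themselves; Iars2 also overlaps Rab3gap2 on the opposite strand over 24.2% of its exon length.

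Tars2, the mitochondrial threonine enzyme, stood at 34.4, 26.3 and 31.8 in DKO, 27.6, 25.2 and 27.1 in Sqstm1 KO and 15, 18.8 and 19.4 in WT libraries. Both groups of knock-out cells lay above WT without overlap, and it was called in neither comparison. Of the 8 tested mitochondrial members, 2 lay wholly above WT in Sqstm1 KO cells and 1 in DKO cells. Among all genes tested these shares were 12.4% and 15.7%. Yars2 stood at 8.61, 10.3 and 6.37 in DKO, 13.3, 12.2 and 15.2 in Sqstm1 KO and 5.45, 10.5 and 10.9 in WT libraries, with the Sqstm1 KO values above all others and no call. Hars2 stood at 26.7 to 33.5 in DKO, 19.5 to 27.6 in Sqstm1 KO and 14.3 to 30 in WT libraries, and Fars2 at 5.71 to 15.3 in DKO, 5.42 to 8.93 in Sqstm1 KO and 1.82 to 11.3 in WT libraries, both with overlap. Hars2 and the cytosolic Hars share 195 exon bases on opposite strands, 4.56% and 7.97% of their exon lengths. Reads there could not be separated if strand was not used. Aars2, Cars2, Ears2, Nars2, Pars2, Sars2, Vars2 and Wars2 did not reach the minimum for testing and lay between 0 and 13.4 in every library. Differences in them were therefore not tested in the main fit. With no filter, 0 of the 16 mitochondrial members were called in each comparison. Ears2, which starts the indirect route to mitochondrial glutaminyl-tRNA, stood at 0 to 3.42 in DKO, 0 to 7.59 in Sqstm1 KO and 1.21 to 8.29 in WT libraries.

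Other genes that share the ATF4 programme were taken from a separate list, of which 26 were tested. Many of them make or move amino acids, but the list also holds others, such as the transcription factors Atf4 and Cebpb. In Sqstm1 KO against WT 7 were called higher and 0 lower, against 2.43% and 3.18% of all genes tested. The median log2 fold change of the 26 was 0.69, against -0.014 over all genes tested. Asns, which makes asparagine, stood at 78.6, 88.5 and 70.5 in Sqstm1 KO and 21.8, 23.4 and 24.9 in WT libraries, far apart, with a log2 fold change of 1.72 (SE 0.26, limma adjusted p = 0.00131). Mthfd2, a mitochondrial folate enzyme, had a log2 fold change of 1.63 (limma adjusted p = 0.00576), Slc7a11, the cystine transporter, 2.45 (limma adjusted p = 0.0108), and Phgdh, the first enzyme of serine synthesis, 1.28 (limma adjusted p = 0.0169). Slc7a5, Slc3a2 and Slc6a9, all of amino acid transport, made up the 7.

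In DKO against Sqstm1 KO 3 of the 26 were called lower and 1 higher, against 1.51% and 4.42% of all genes tested. Slc7a5, a transporter of large neutral amino acids, stood at 20.1, 37.7 and 21.7 in DKO and 86.8, 108 and 49.9 in Sqstm1 KO libraries, with a log2 fold change of -1.57 (SE 0.35, limma adjusted p = 0.0145). Slc6a9 had a log2 fold change of -1.40 (limma adjusted p = 0.0141) and Mthfd2 one of -1.13 (limma adjusted p = 0.0454). The gene called higher was Cebpb, a C/EBP transcription factor that is also on the list, with 1.41 (limma adjusted p = 0.0245). Slc6a9 and Cebpb share exon bases with an opposite-strand gene, while Slc7a5 and Mthfd2 do not. The median of the 26 was -0.48. In DKO against WT 2 were called higher and 0 lower, against 4.11% and 2.31% of all genes tested. These 2 were Cebpb with 1.61 (limma adjusted p = 0.0108) and Asns with 0.95 (limma adjusted p = 0.0434). The median of the 26 was 0.32. Atf4 itself stood at 96.6, 102 and 110 in DKO, 105, 114 and 204 in Sqstm1 KO and 73.5, 75.3 and 78.8 in WT libraries; both knock-out groups lay above WT without overlap and it was not called in any comparison. Of all genes tested, 12.4% lay wholly above WT in Sqstm1 KO cells and 15.7% in DKO cells. ATF4 is controlled largely at translation, which RNA values do not measure.

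A list of interferon-stimulated genes was included because Wars1 is one in other cells. Of 21 tested, 12 were called lower and 9 were not called in Sqstm1 KO against WT, with a median log2 fold change of -2.07. Over all genes tested 3.18% were called lower there. In DKO against Sqstm1 KO 16 were called higher, against 4.42% of all genes tested, and 5 were not called, with a median of 2.56. In DKO against WT 0 were called by limma, with a median of 0.42, while edgeR and DESeq2 each called 2. Over all genes tested 4.11% were called higher and 2.31% lower there by limma. The 22 listed genes with a row summed to 1188 to 2392 in DKO, 256 to 442 in Sqstm1 KO and 850 to 899 in WT libraries. Ifit1 alone made up 1601 of the 2392 in DKO replicate 1. It stood at 107 and 408 in DKO replicates 2 and 3 and at 89.9, 52.7 and 66.7 in WT libraries. Wars1 stood at 7.64 to 21.7 in DKO, 16.3 to 24.3 in Sqstm1 KO and 13.6 to 19.4 in WT libraries. Wars1 was not called in any comparison. The part of the interferon-stimulated genes and of the Y-linked reads in the synthetase results was not tested.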

How the data were processed

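RNA was measured in 9 libraries of cultured hepatic stellate cells. The deposited table holds signal values, made by the authors from gene read counts with 1 size factor for each library; STAR, DESeq2 and GRCm39 were used, per the submitters' processing notes. The sources used here do not give versions, read counter, annotation, strand setting or gene filter. In each library all values above 0 were whole multiples of the smallest (100% of 121126 values, tolerance 0.01), so whole reads were recovered.

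Differences were tested with limma 3.58.1 (R 4.3.3) on log2(value + 1), with a mean-variance trend and all 9 libraries in 3 groups, over the 10118 genes that reached 10 in 3 or more libraries, two-sided, adjusted by Benjamini-Hochberg; the pseudocount understates changes of low genes. An exact permutation test of 3 against 3 libraries cannot go below 0.1. The code was tested on simulated data. Alternatives were edgeR 4.0.16 and DESeq2 1.42.0 on whole reads, other pseudocounts, filters and normalizations, a replicate block, fits of 6 libraries and leaving out each library.

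The members, lists and naming rule were chosen with earlier results of these data known. Fold changes are given for members that were called, or whose groups did not overlap with an absolute log2 fold change of at least 1; up to 4 called genes by smallest p are named per other list; up to 3 promoters of called members are printed. Adjusted p-values of Aars, Tars and Yars against WT and of Gars and Nars in DKO cells, near the threshold, were added after they were seen. Chromosomes and overlaps come from GENCODE mouse release 21 by name (12445 genes, 88.8%); promoters are from RefSeq on GRCm38.p6. Counts in reads cover counting error only. The values of 2 genes are not reported here.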

Additional observations from a re-analysis of the deposited data

How the results depend on the processing

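The log2 fold changes of the members called in a comparison kept their sign there under all alternatives. Of the 30 tested members, 9 had another sign under at least 1 alternative in Sqstm1 KO against WT, 8 in DKO against Sqstm1 KO and 9 in DKO against WT, a count added after seeing the data, and none of these was called in that comparison. In Sqstm1 KO against WT 3 cytosolic members were called; 5 were called with a minimum value of 50, 6 with DESeq2 and 1 to 6 when single libraries were left out. Over all genes 568 were called, 290 with the minimum of 50, 307 without genes that overlap another on the opposite strand, and 226 to 651 when single libraries were left out. In DKO against Sqstm1 KO 4 were called, 0 when only those 6 libraries were fitted, 2 without overlapping genes and 0 to 5 when single libraries were left out; with quantile normalization 1 mitochondrial member, Lars2, was called, and 0 to 1 when single libraries were left out. Over all genes 600 were called, 291 with the minimum of 50, 351 when only those 6 libraries were fitted, 310 without overlapping genes and 243 to 764 when single libraries were left out. In DKO against WT 0 cytosolic members were called, but 1, Gars, with the minimum of 50, TMM scaling, quantile normalization, DESeq2, the replicate block or only those 6 libraries, and 0 to 1 when single libraries were left out; of the mitochondrial members 0 to 2 were called then, Lars2 and Rars2 without DKO replicate 2. Over all genes 650 were called, 360 with the minimum of 50, 1260 when only those 6 libraries were fitted, 311 without overlapping genes and 251 to 1409 when single libraries were left out, the most without Sqstm1 KO replicate 3. The cause of these differences was not tested, except that fewer genes or libraries enter some fits.

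The replicate numbers were also fitted as a replicate block, with 3 and 4 cytosolic members called in Sqstm1 KO against WT and in DKO against Sqstm1 KO. Libraries with the same number correlated at -0.12 to 0.18 in their deviations from the group means, not above 0.1 in every pair, so the numbers were not taken as a pairing. Each DKO library correlated best with the Sqstm1 KO library of its own number. In the other comparisons this did not hold for every library of the first-named group. The best match of the second-named group's libraries was not computed.

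The medians of the lists and the counts of the other pathway genes were recomputed under the same alternatives, a choice made after seeing the data. The median of the ATF4-responsive members was 0.71 to 0.91 in Sqstm1 KO against WT and -0.85 to -0.69 in DKO against Sqstm1 KO. Of the other ATF4 pathway genes 2 to 8 were called in Sqstm1 KO against WT, 1 to 5 in DKO against Sqstm1 KO and 0 to 4 in DKO against WT, and of the interferon-stimulated genes 7 to 15 in Sqstm1 KO against WT. Medians close to 0 changed sign under some alternatives, such as that of the other 7 cytosolic synthetases in DKO against Sqstm1 KO, at -0.26 to 0.04.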

Other observations

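Among the genes for eIF2alpha kinases and their phosphatase, 7 were tested. Eif2ak2 (PKR), a kinase activated by double-stranded RNA and itself interferon-induced, stood at 123, 155 and 99.3 in DKO libraries, at 48, 63.3 and 68.3 in Sqstm1 KO libraries and at 113, 123 and 161 in WT libraries, so the Sqstm1 KO values lay below all others. Its log2 fold change was -1.13 in Sqstm1 KO against WT (SE 0.27, limma adjusted p = 0.0234) and 1.05 in DKO against Sqstm1 KO (SE 0.27, limma adjusted p = 0.0319), and the other 6 were not called. The call was lost in 4 of 19 alternatives against WT, without Sqstm1 KO replicate 1 or any 1 WT replicate (adjusted p 0.00458 to 0.132 over all 19), and in 7 of 19 in DKO against Sqstm1 KO (0.0107 to 0.118), 6 of them with a library left out and 1 with only the 6 libraries of these groups fitted. Over all genes tested, 3.18% were called lower in Sqstm1 KO against WT and 4.42% higher in DKO against Sqstm1 KO. Eif2ak2 shares exon bases with an opposite-strand gene, and reads there could not be separated if strand was not used. RNA levels do not measure the activity of the eIF2alpha kinases.

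Of 12 tested genes that receive or check charged tRNA, 0 were called by limma, edgeR or DESeq2 in each comparison. There were 2 at an unadjusted limma p under 0.05 in Sqstm1 KO against WT and 2 in DKO against Sqstm1 KO. In DKO against WT there were 0. Of all genes tested, 19.4%, 18.8% and 21.4% had such a p in the same order. Eef1e1, the third scaffold of the multi-synthetase complex, stood at 0, 11.4 and 5.09 in DKO and 15.3, 14.6 and 29.3 in Sqstm1 KO libraries. In WT libraries it stood at 10.9, 5.27 and 6.06, so the Sqstm1 KO values lay above all others. Of all genes tested, 12.4% lay wholly above WT in Sqstm1 KO cells and 9.47% wholly below Sqstm1 KO in DKO cells. Tarsl2, a second cytosolic threonyl-tRNA synthetase that the naming rule does not cover, stood at 8.61 to 19.1 in DKO, 13 to 25.2 in Sqstm1 KO and 13.9 to 21.8 in WT libraries, with overlap. Of 11 tested genes for mitochondrial tRNA amidation and translation, 0 were called by limma in each comparison, with 0, 0 and 1 at an unadjusted p under 0.05 in Sqstm1 KO against WT, DKO against Sqstm1 KO and DKO against WT; edgeR called 0 in each, and DESeq2 called 1 in DKO against WT.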
